A study of Mus musculus with 36 samples.

Results

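Ctse, Ptprv, Rnpep, Csrp1, Lad1 and Ptprc lie near each other on mouse chromosome 1. They were chosen with values of these arrays already known, by taking the probe sets annotated to these symbols, and they are 6 genes of 18193 measured and 9 probe sets of 45037. In the RefSeq gene order of assembly GRCm38.p6, used here only for order, 79 measured genes stood between Ctse and Ptprc, 29 between Ptprv and Ptprc, 26 between Rnpep and Ptprc, 19 between Csrp1 and Ptprc and 16 between Lad1 and Ptprc. Because hairpin-against-LacZ values entered the choice, differences of these 6 genes between a hairpin and LacZ are given below as a description, and nothing is read from their calls. Differences between the tissue labels did not enter it by its rule, but they come from the same arrays.

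The study used CD8 T cells from OT-I mice, whose T cell receptor recognises an ovalbumin peptide, and transduced them with a short hairpin RNA (shRNA), an RNA that lowers the level of 1 chosen transcript. The cells were transferred into mice bearing B16 melanoma and recovered later from tumor or spleen. The hairpins targeted Ppp2r2d, Egr2, Ptpn2, Arhgap5 or Alk, and LacZ, a bacterial gene, served as the control. Each of the 6 transductions had 3 arrays labelled tumor and 3 labelled spleen, 36 arrays in 12 groups. All groups share the OT-I origin, the transduction and the transfer. The strain of donor and host, their age, their Ptprc allele, the B16 subline and the hairpin sequences do not appear in the labels used here. Nothing in the labels says that arrays of a group came from separate animals, so p-values measure the spread between these arrays, which may be technical.

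Proteins made by these genes work in different places. Ctse encodes cathepsin E, an aspartic protease that cuts proteins inside endosomes, and Rnpep encodes aminopeptidase B, which removes arginine or lysine from the start of peptides. Ptprv and Ptprc encode receptor-type tyrosine phosphatases, and the product of Ptprc is CD45, found on all nucleated blood cells, which in T cells acts on the kinase Lck and so sets how readily the T cell receptor signals. Lad1 encodes ladinin, a filament protein of epithelial basement membranes, and Csrp1 encodes a small protein with LIM domains (zinc-binding folds that hold other proteins) found with the actin cytoskeleton.

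Levels are the deposited log2 values, on which a difference of 1 is a doubling. They are not centred on a stated reference, so a value below 0 is a low signal and not an absent one, and levels of different probe sets are not compared. Array medians lay between -0.48 and -0.23 and the lowest value on an array between -4.51 and -1.38. The first Ptpn2 array labelled tumor stood apart: its best correlation with any other array was 0.890, against 0.954 to 0.993 for the other 35, and its Gapdh control read 2.94 higher at the 3′ end than at the 5′ end, against 0.25 to 1.39 elsewhere. A narrower range at the low end set apart LacZ array 2 labelled spleen and Egr2 array 2 and Ptpn2 array 3 labelled tumor, and results are also given without these 4 arrays, a choice made after seeing the data. Markers of macrophages and melanocytes went against the labels. The mean of 9 measured macrophage genes was -2.00 to -0.41 on arrays labelled tumor and 2.05 to 4.81 on arrays labelled spleen, and that of 10 melanocyte genes was -1.10 to -0.13 on arrays labelled tumor and 2.85 to 4.55 on arrays labelled spleen. Markers of CD8 T cells gave high readings whichever the label, with means of 4.69 to 6.91 on arrays labelled tumor and 5.76 to 6.67 on arrays labelled spleen. The part of these markers in the results was not tested, and in bulk RNA fewer cells of a type and less RNA per cell cannot be told apart. The B cell list (9 of 10 genes measured) moved with the transductions under the spleen label: its mean was -1.79 to -1.02 on the 15 hairpin arrays and -0.57 to 0.0034 on the LacZ arrays, without overlap. The tissue names below are therefore those of the labels. Whether the labels were exchanged cannot be told from the files used here, and an exchange would turn the sign of every difference between labelled tumor and labelled spleen. Of the 5 targets under their own hairpins, only Ppp2r2d passed the test against LacZ, on arrays labelled spleen (-1.37, adjusted p = 0.0286 by limma), and the other differences lay between -1.32 and 1.13.

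Of the 6 genes, 4 had a promoter among the RefSeq sequences used here (Rnpep, Csrp1, Lad1 and Ptprc). The 250 bases before the start site are shown for the 3 of them whose level differed most between hairpins and LacZ. These genes stand near each other. With Ppp2r2d, Egr2, Ptpn2 and Arhgap5 on arrays labelled spleen, the mean of Csrp1 was above LacZ and the means of Rnpep and Lad1 below it. Such values entered the choice of the genes, so nothing is read from the directions. Capitals mark the motifs found: the GC box (GGGCGG) and the RUNX motif (TGTGGT), on either strand. Coordinates are those of GRCm38.p6. Rnpep is on the minus strand at chr1:135284085-135284334, Csrp1 on the plus strand at chr1:135728917-135729166 and Lad1 on the plus strand at chr1:135818348-135818597.
Rnpep: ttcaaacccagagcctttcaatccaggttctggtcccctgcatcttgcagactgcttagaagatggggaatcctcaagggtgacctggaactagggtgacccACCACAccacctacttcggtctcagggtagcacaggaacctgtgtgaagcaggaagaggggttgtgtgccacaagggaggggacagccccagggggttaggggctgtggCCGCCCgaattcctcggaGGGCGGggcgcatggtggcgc
Csrp1: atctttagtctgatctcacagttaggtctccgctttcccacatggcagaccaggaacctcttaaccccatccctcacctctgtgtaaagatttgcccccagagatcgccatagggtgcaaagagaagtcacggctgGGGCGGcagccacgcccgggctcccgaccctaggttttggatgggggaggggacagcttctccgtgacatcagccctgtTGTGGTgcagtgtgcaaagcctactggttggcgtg
Lad1: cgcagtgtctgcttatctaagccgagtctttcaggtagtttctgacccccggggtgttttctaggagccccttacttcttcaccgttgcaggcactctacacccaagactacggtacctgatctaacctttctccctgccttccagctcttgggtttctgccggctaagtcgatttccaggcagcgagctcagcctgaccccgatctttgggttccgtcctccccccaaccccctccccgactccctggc
Of 6 motifs searched on both strands of the 300 bases around each start, Rnpep held 2 GC boxes and 1 RUNX match, and Csrp1 held 1 GC box, 1 RUNX match and, after its start and so not shown, 1 ETS match (CCGGAAG). Ptprc held 1 TATA match (TATAAA). Csrp1 and Ptprc each had a second listed start, whose window held none of the 6 motifs. The Lad1 window held none of the 6, and the early growth response motif (GCGNGGGCG) and the AP-1 motif (TGANTCA) were in no window of these 4 genes. Among 32851 mouse promoters of this length, 35.7% held the GC box, 16.8% RUNX, 13.6% TATA, 8.86% ETS, 7.81% AP-1 and 5.55% the early growth response motif. These matches describe the letters of the windows only.

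Ctse was high in every array of the Ppp2r2d, Egr2, Ptpn2 and Arhgap5 hairpins under both labels, and low with the Alk hairpin and LacZ. Its main probe set, 1418989_at, the one with the higher mean, read on arrays labelled tumor 5.86, 5.64 and 5.92 with Ppp2r2d, 5.04, 6.26 and 5.24 with Egr2, 5.74, 5.62 and 5.98 with Ptpn2, and 5.50, 5.59 and 4.89 with Arhgap5. It read 0.91, 0.94 and 2.67 with Alk and 1.5, 0.17 and 2.64 with LacZ. The 12 arrays of the first 4 hairpins did not overlap the 6 of Alk and LacZ, whereas Alk and LacZ overlapped each other.

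Under the spleen label the same probe set read 5.86, 5.90 and 5.89 with Ppp2r2d, 5.75, 5.84 and 5.20 with Egr2, 5.84, 5.53 and 5.90 with Ptpn2, and 5.01, 5.20 and 5.15 with Arhgap5. It read -0.49, -0.86 and -0.18 with Alk and -0.65, -0.82 and -1.35 with LacZ. The pattern over transductions was the same as on arrays labelled tumor, but Alk and LacZ lay lower. The order of the 12 group means began with Ppp2r2d labelled spleen and ended with LacZ labelled spleen. The first 8 groups, those of the 4 hairpins, each overlapped the next in the order. A gap of 3.62 then separated them from Alk labelled tumor, and a second gap of 1.94 separated LacZ labelled tumor from Alk labelled spleen.

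**Figure D1:**
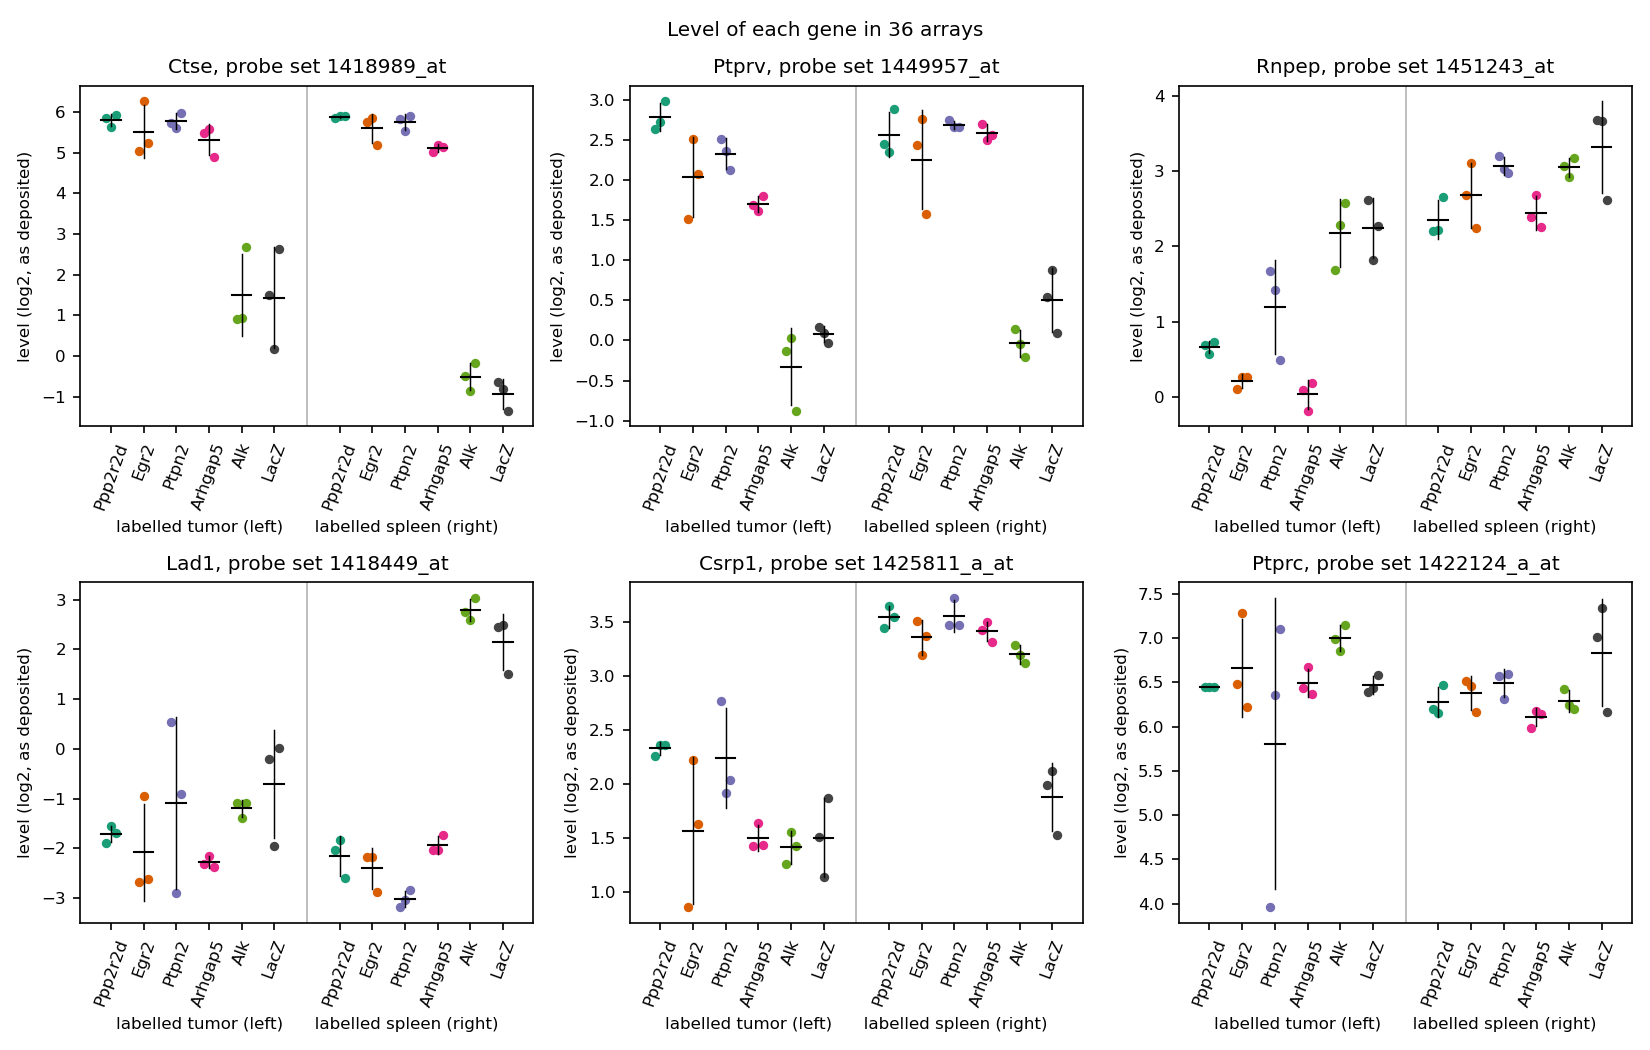
Deposited log2 level of the main probe set of each of the 6 genes on every array (points) with group means (short lines) and SD (vertical lines), by transduction, with labelled tumor to the left of labelled spleen. Ctse and Ptprv are high with 4 hairpins and low with Alk and LacZ under both labels, and Lad1 is above 1.5 only in the Alk and LacZ arrays labelled spleen.

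Against LacZ labelled tumor, Ctse was higher by 4.37 with Ppp2r2d (20.7-fold), 4.08 with Egr2, 4.35 with Ptpn2 and 3.89 with Arhgap5 (14.8-fold), and by 0.07 with Alk. Against LacZ labelled spleen it was higher by 6.83 with Ppp2r2d, 6.54 with Egr2, 6.70 with Ptpn2 and 6.06 with Arhgap5, and by 0.43 with Alk. The 3 LacZ arrays labelled spleen read Ctse below their array medians (-0.42 to -0.31), so those sizes rest on a weak signal in LacZ and no fold is given. Among the 18193 genes this was the highest difference with Ppp2r2d and Egr2 under both labels. With Ptpn2 it ranked 4 on arrays labelled tumor and 2 on arrays labelled spleen, and with Arhgap5 it ranked 5 and 2. With Alk it ranked 13296 on arrays labelled tumor and 2805 on arrays labelled spleen. All 5 comparisons under a label share the same 3 LacZ arrays.

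The levels of Ctse in labelled tumor against labelled spleen split the transductions too. With the Alk hairpin Ctse averaged 1.51 ± 1.01 on arrays labelled tumor and -0.51 ± 0.34 on arrays labelled spleen (SD, n = 3 each), a difference of 2.01 (SE 0.43, adjusted p = 0.000404 in limma over all genes). In LacZ cells it averaged 1.44 ± 1.23 on arrays labelled tumor and -0.94 ± 0.36 on arrays labelled spleen (SD, n = 3 each), a difference of 2.38 (SE 0.43, adjusted p = 6.81e-05). Ctse thus rose under the tumor label with Alk and with LacZ, and within each the arrays of the labels did not overlap. With Ppp2r2d, Egr2, Ptpn2 and Arhgap5 the difference was -0.08, -0.08, 0.02 and 0.20 and did not pass, with adjusted p between 0.739 and 0.963. Both passed in each fit that left out 1 of their 6 arrays, with differences of 1.43 to 2.31 with Alk and 1.78 to 3.01 with LacZ. The median over all genes of the same difference was 0.34 with Alk and -0.48 with LacZ, and after quantile normalization, which brings those medians to within 0.07 of 0, Ctse differed by 2.12 with Alk and 2.81 with LacZ.

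The second Ctse probe set, 1427797_s_at, whose suffix marks probes that can match more than 1 transcript, showed another pattern. Arrays labelled tumor gave it -0.18, -0.33 and -0.68 with Ppp2r2d, -0.61, -0.27 and -0.35 with Egr2, 1.91, 0.98 and 0.26 with Ptpn2, -0.88, -0.34 and -0.89 with Arhgap5, 0.22, -0.60 and -0.31 with Alk, and 0.48, -0.24 and -0.12 with LacZ. Arrays labelled spleen gave it 1.38, 1.32 and 1.13 with Ppp2r2d, 2.77, 1.94 and 2.90 with Egr2, 2.58, 2.59 and 3.34 with Ptpn2, 2.72, 2.63 and 2.57 with Arhgap5, 2.69, 2.06 and 2.26 with Alk, and 0.18, 0.83 and 1.74 with LacZ. The clear split between 4 hairpins and the Alk and LacZ arrays was absent from it, and Alk labelled spleen stood among the high groups. Against LacZ it differed by -0.44, -0.45, 1.01, -0.74 and -0.27 on arrays labelled tumor and by 0.36, 1.62, 1.92, 1.72 and 1.42 on arrays labelled spleen, in the order Ppp2r2d, Egr2, Ptpn2, Arhgap5, Alk.

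In labelled tumor against labelled spleen, 1427797_s_at fell by 1.67 with Ppp2r2d, 2.95 with Egr2, 1.79 with Ptpn2, 3.34 with Arhgap5 and 2.57 with Alk, with adjusted p between 1.47e-08 and 0.000723 by limma over 45037 probe sets. Of all probe sets 22.8%, 25.5%, 46.8%, 31% and 55.2% passed in those comparisons, in the same order. In LacZ cells, where 22.8% of all probe sets passed, it differed by -0.88 and did not pass (adjusted p = 0.0824), but after quantile normalization it did (-1.16, adjusted p = 0.0261). With Alk and LacZ the 2 probe sets of Ctse therefore gave differences of opposite sign between the labels. Statements on Ctse elsewhere in the text are about 1418989_at.

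**Figure D2:**
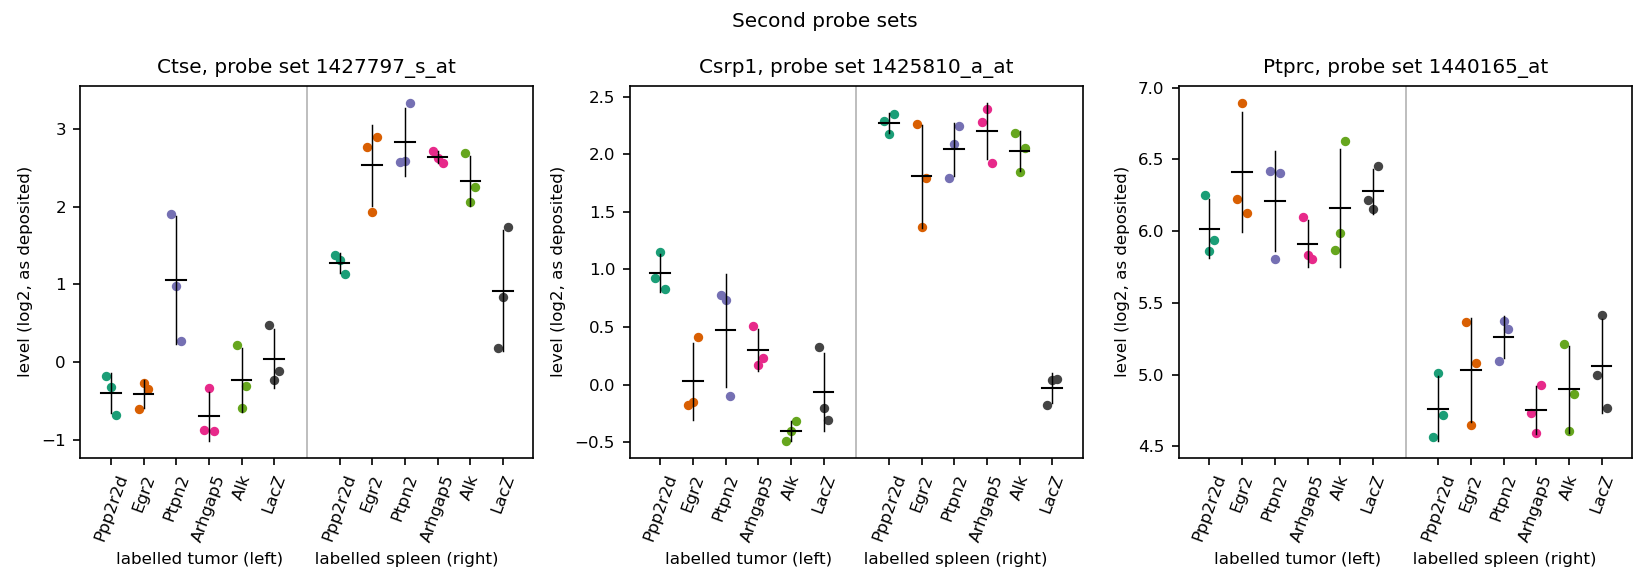
Deposited log2 level of the second probe sets of Ctse, Csrp1 and Ptprc on every array (points) with group means (short lines) and SD (vertical lines), by transduction, with labelled tumor to the left of labelled spleen. The second Csrp1 set repeats the low LacZ level under the spleen label (-0.17 to 0.05), the second Ctse set lacks the split between hairpins, and the second Ptprc set is higher on every array labelled tumor than on any labelled spleen.

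Ptprv, the receptor phosphatase first described in bone and also called OST-PTP, followed the split of Ctse. Its single probe set read on arrays labelled tumor 2.64, 2.73 and 2.98 with Ppp2r2d, 1.51, 2.51 and 2.08 with Egr2, 2.51, 2.36 and 2.12 with Ptpn2, and 1.68, 1.62 and 1.80 with Arhgap5. It read -0.13, 0.03 and -0.88 with Alk and 0.17, 0.09 and -0.03 with LacZ. Under the spleen label it read 2.45, 2.36 and 2.89 with Ppp2r2d, 2.43, 2.76 and 1.57 with Egr2, 2.75, 2.66 and 2.67 with Ptpn2, and 2.70, 2.5 and 2.56 with Arhgap5, against 0.14, -0.04 and -0.20 with Alk and 0.54, 0.88 and 0.09 with LacZ. The 24 arrays of the 4 hairpins lay between 1.51 and 2.98 and the 12 of Alk and LacZ between -0.88 and 0.88. Neighbours in the order of group means overlapped except at 1 step, of 1.20, between Arhgap5 labelled tumor and LacZ labelled spleen.

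Against LacZ, Ptprv was higher by 2.70, 1.96, 2.25 and 1.62 on arrays labelled tumor and by 2.06, 1.75, 2.19 and 2.08 on arrays labelled spleen with Ppp2r2d, Egr2, Ptpn2 and Arhgap5. With Alk it differed by -0.41 on arrays labelled tumor and -0.54 on arrays labelled spleen. Between the labels Ptprv passed only with Arhgap5, where it fell by 0.89 under the tumor label (SE 0.28, adjusted p = 0.0149, limma). That call ended under cyclic loess (-0.63, adjusted p = 0.0695) and quantile normalization (-0.54, adjusted p = 0.120) and without the first Arhgap5 array labelled spleen (-0.83, adjusted p = 0.0522) or the second labelled tumor (-0.84, adjusted p = 0.0502).

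Rnpep moved the other way. Under the tumor label it read 0.68, 0.57 and 0.72 with Ppp2r2d, 0.11, 0.26 and 0.27 with Egr2, 1.67, 1.42 and 0.49 with Ptpn2, and 0.10, -0.18 and 0.19 with Arhgap5, against 1.69, 2.28 and 2.57 with Alk and 2.62, 1.82 and 2.27 with LacZ. The 4 hairpins all lay below LacZ without overlap. The Rnpep levels labelled spleen were closer together: 2.20, 2.21 and 2.65 with Ppp2r2d, 2.68, 3.11 and 2.25 with Egr2, 3.20, 3.02 and 2.98 with Ptpn2, and 2.38, 2.68 and 2.25 with Arhgap5, against 3.06, 2.91 and 3.17 with Alk and 3.67, 3.66 and 2.62 with LacZ. Each hairpin overlapped LacZ there. In the order of its 12 group means Rnpep had 2 steps without overlap, of 0.99 below Alk labelled tumor and 0.45 below Ppp2r2d labelled tumor. Against LacZ, Rnpep differed by -1.58, -2.02, -1.05 and -2.21 on arrays labelled tumor and by -0.96, -0.64, -0.25 and -0.88 on arrays labelled spleen with those 4 hairpins. With Alk it differed by -0.06 on arrays labelled tumor and -0.27 on arrays labelled spleen.

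By its single probe set Rnpep passed between the labels in every transduction, though not under every alternative with Alk and LacZ. In labelled tumor against labelled spleen it fell by 1.69 with Ppp2r2d, 2.46 with Egr2, 1.87 with Ptpn2, 2.41 with Arhgap5, 0.87 with Alk and 1.08 with LacZ (SE 0.30 each, adjusted p = 5.33e-05, 1.22e-07, 1.32e-05, 1.42e-07, 0.0177 and 0.00751 by limma). The arrays of the labels did not overlap except in LacZ cells. The Alk call ended without the third Alk array labelled spleen (-0.81, adjusted p = 0.0555), without the first labelled tumor (-0.62, adjusted p = 0.125) and with the replicate number as a block (-0.86, adjusted p = 0.0642). The LacZ call ended without the first or the second LacZ array labelled spleen (-0.90, adjusted p = 0.0503, and -0.91, adjusted p = 0.0545), without the second labelled tumor (-0.87, adjusted p = 0.0522) and in a fit of the LacZ arrays alone (adjusted p = 0.180).

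Lad1 was low in most groups and stood out in 2 of them. Outside the Alk and LacZ arrays labelled spleen it lay below the array median on 27 of 30 arrays. Arrays labelled tumor gave Lad1 levels of -1.88, -1.56 and -1.69 with Ppp2r2d, -2.68, -0.95 and -2.62 with Egr2, 0.55, -2.90 and -0.90 with Ptpn2, -2.31, -2.15 and -2.37 with Arhgap5, -1.09, -1.39 and -1.09 with Alk, and -0.20, -1.96 and 0.03 with LacZ. There only Arhgap5 lay below LacZ without overlap. Arrays labelled spleen gave -2.03, -1.83 and -2.60 with Ppp2r2d, -2.17, -2.17 and -2.87 with Egr2, -3.17, -3.04 and -2.84 with Ptpn2, and -2.04, -2.03 and -1.73 with Arhgap5. It read 2.76, 2.59 and 3.04 with Alk and 2.46, 2.48 and 1.51 with LacZ. The Alk and LacZ arrays labelled spleen lay above all the others, and Alk lay above LacZ without overlap. The steps of Lad1 without overlap were 0.64 from Alk to LacZ labelled spleen, 2.86 from there to LacZ labelled tumor and 0.52 below Alk labelled tumor.

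Against LacZ labelled tumor Lad1 differed by -1.0, -1.37, -0.38, -1.57 and -0.48, in the order Ppp2r2d, Egr2, Ptpn2, Arhgap5, Alk. Against LacZ labelled spleen it differed by -4.31 with Ppp2r2d, -4.55 with Egr2, -5.17 with Ptpn2, -4.08 with Arhgap5 and 0.64 with Alk. All 12 arrays of the first 4 hairpins labelled spleen read Lad1 below their array medians, so those sizes rest on weak signals and no fold is given. The difference was the lowest of the 18193 genes with Egr2 and Ptpn2, and Lad1 ranked 2 from the lowest with Ppp2r2d and 3 with Arhgap5.

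In labelled tumor against labelled spleen, Lad1 fell by 3.98 with Alk (adjusted p = 5.23e-07, limma) and by 2.86 with LacZ (adjusted p = 0.000115). With Ptpn2 it rose by 1.93 (adjusted p = 0.00468). The rise ended with quantile normalization (1.16, adjusted p = 0.0820) and in a fit of the compared arrays alone (adjusted p = 0.110). It rested on the Ptpn2 array labelled tumor that stood apart: without it the difference was 1.12 (adjusted p = 0.0771), and without the 4 arrays that stood apart it was 0.12 (adjusted p = 0.902). With Ppp2r2d, Egr2 and Arhgap5 the differences were 0.44, 0.32 and -0.34 and did not pass. Epithelial markers, the list that holds the cell type Lad1 is known from, had means of -1.67 to -0.59 on arrays labelled tumor and -1.81 to -0.47 on arrays labelled spleen. Under the spleen label the mean of the macrophage list was highest with Alk, at 4.17 to 4.81, where Lad1 was high. It was 2.18 to 3.73 with the 4 hairpins whose Lad1 was low. With LacZ, whose Lad1 was high, it was 2.05 to 2.58. The B cell list, lower with all 5 hairpins than with LacZ, was at -1.17 to -1.03 with Alk, where Lad1 was high. The part of either list in the Lad1 levels was not tested.

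Csrp1 separated LacZ from all 5 hairpins under the spleen label. Its main probe set read on arrays labelled tumor 2.27, 2.37 and 2.36 with Ppp2r2d, 0.86, 2.22 and 1.63 with Egr2, 2.78, 1.92 and 2.04 with Ptpn2, 1.43, 1.64 and 1.44 with Arhgap5, 1.26, 1.56 and 1.42 with Alk, and 1.51, 1.14 and 1.87 with LacZ. Ppp2r2d and Ptpn2 lay above LacZ there and the others overlapped it. Under the spleen label it read 3.45, 3.65 and 3.55 with Ppp2r2d, 3.52, 3.19 and 3.38 with Egr2, 3.48, 3.73 and 3.48 with Ptpn2, 3.43, 3.5 and 3.32 with Arhgap5, and 3.29, 3.20 and 3.12 with Alk, against 2.00, 2.13 and 1.53 with LacZ. Alk, which lay with LacZ for Ctse, Ptprv and Lad1, here lay with the other hairpins. The single step without overlap in the order of the group means, of 0.87, lay below Alk labelled spleen. Against LacZ the differences were 0.83, 0.06, 0.74, -0.0036 and -0.09 on arrays labelled tumor and 1.67, 1.48, 1.68, 1.54 and 1.32 on arrays labelled spleen, in the order Ppp2r2d, Egr2, Ptpn2, Arhgap5, Alk.

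In labelled tumor against labelled spleen, Csrp1 fell by 1.22 with Ppp2r2d, 1.79 with Egr2, 1.32 with Ptpn2, 1.92 with Arhgap5 and 1.79 with Alk, with adjusted p between 8.82e-07 and 0.000676 by limma. With LacZ it differed by -0.38 and did not pass (adjusted p = 0.300). The second Csrp1 probe set, 1425810_a_at, gave the same split: it fell by 1.30, 1.78, 1.57, 1.90 and 2.43 with the 5 hairpins and differed by -0.03 with LacZ (adjusted p = 0.934). It read 1.37 to 2.40 on the 15 hairpin arrays labelled spleen, above the -0.17, 0.04 and 0.05 of LacZ. Smooth muscle and fibroblast markers, cells known for high Csrp1, had means of -1.86 to -0.16 on arrays labelled tumor and -1.45 to -0.40 on arrays labelled spleen, and their part was not tested. Array quality and B cell markers moved with Csrp1 too. The Gapdh control read 0.246 to 0.828 higher at the 3′ end than at the 5′ end on the 15 hairpin arrays labelled spleen, against 0.829 to 1.39 on the 3 of LacZ, and 0.857 to 2.94 higher on the 18 arrays labelled tumor. The best correlation with another array was 0.982 to 0.991 on the hairpin arrays labelled spleen and 0.954 to 0.971 on those of LacZ. The part of these measures, and of the B cell list given above, in the Csrp1 levels was not tested.

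Ptprc had the narrowest range of differences from LacZ among the 6 genes. Its main probe set, 1422124_a_at, lay between 5.99 and 7.34 on 35 arrays and at 3.96 on the first Ptpn2 array labelled tumor. Against LacZ it differed by -0.02, 0.19, -0.66, 0.02 and 0.53 on arrays labelled tumor and by -0.56, -0.45, -0.34, -0.73 and -0.55 on arrays labelled spleen, in the order Ppp2r2d, Egr2, Ptpn2, Arhgap5, Alk. Alk labelled tumor (6.86 to 7.15) lay above LacZ labelled tumor (6.39 to 6.59) without overlap. Between the labels it differed by 0.17, 0.28, -0.69, 0.39 and 0.71 with those hairpins and by -0.37 with LacZ, and none passed (adjusted p from 0.156 to 0.900, limma). Without the 4 arrays that stood apart the Alk difference of 0.71 passed (adjusted p = 0.00192), and without the third Ptpn2 array labelled tumor alone the Ptpn2 difference did (-1.33, adjusted p = 0.00998). The Alk difference also passed with the compared arrays alone (adjusted p = 0.00975), with array weights (0.59, adjusted p = 3.72e-05) and with the mean of both probe sets (0.99, adjusted p = 0.00515). With that mean Egr2 (0.83, adjusted p = 0.0257) and Arhgap5 (0.77, adjusted p = 0.0323) passed, and Arhgap5 also did with array weights (0.41, adjusted p = 0.0439).

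The second Ptprc probe set, 1440165_at, did change between the labels. It lay between 5.80 and 6.89 on arrays labelled tumor and between 4.57 and 5.42 on arrays labelled spleen, without overlap. In labelled tumor against labelled spleen it rose by 1.25 with Ppp2r2d, 1.38 with Egr2, 0.95 with Ptpn2, 1.16 with Arhgap5, 1.27 with Alk and 1.22 with LacZ (adjusted p from 0.000208 to 0.00648, limma over all probe sets), and by 1.24 to 1.59 after quantile normalization. It differed from LacZ by -0.36 to 0.20 under either label. CD45 RNA is spliced into several forms, and which of them each probe set reads was not tested here.

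Counted over genes and transductions, 17 of 36 pairs passed in labelled tumor against labelled spleen, 3 higher and 14 lower, where 34.8% of all such pairs over 18193 genes passed (22.6% with Ppp2r2d, 26.4% with Egr2, 49.2% with Ptpn2, 32.3% with Arhgap5, 53.2% with Alk and 25.2% with LacZ). Higher were Ctse with Alk and LacZ and Lad1 with Ptpn2. Against LacZ, 11 of 30 pairs passed on arrays labelled tumor, where 0.432% of all pairs did, and 18 of 30 on arrays labelled spleen, where 8.39% did. The shares of all genes with Ppp2r2d, Egr2, Ptpn2, Arhgap5 and Alk were 0.995%, 0.0275%, 0.764%, 0.368% and 0.0055% on arrays labelled tumor and 12.8%, 3.23%, 9.58%, 8.89% and 7.4% on arrays labelled spleen. The arrays of a pair did not overlap in 19 of 36 pairs between the labels (48.5% of all pairs), in 16 of 30 against LacZ labelled tumor (15%) and in 18 of 30 against LacZ labelled spleen (27.1%). The 6 genes were chosen on the contrasts against LacZ, so these counts describe the choice and nothing is read from them. The difference from LacZ itself differed between the labels in 7 of 30 pairs, against 9.26% of all pairs.

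**Figure D3:**
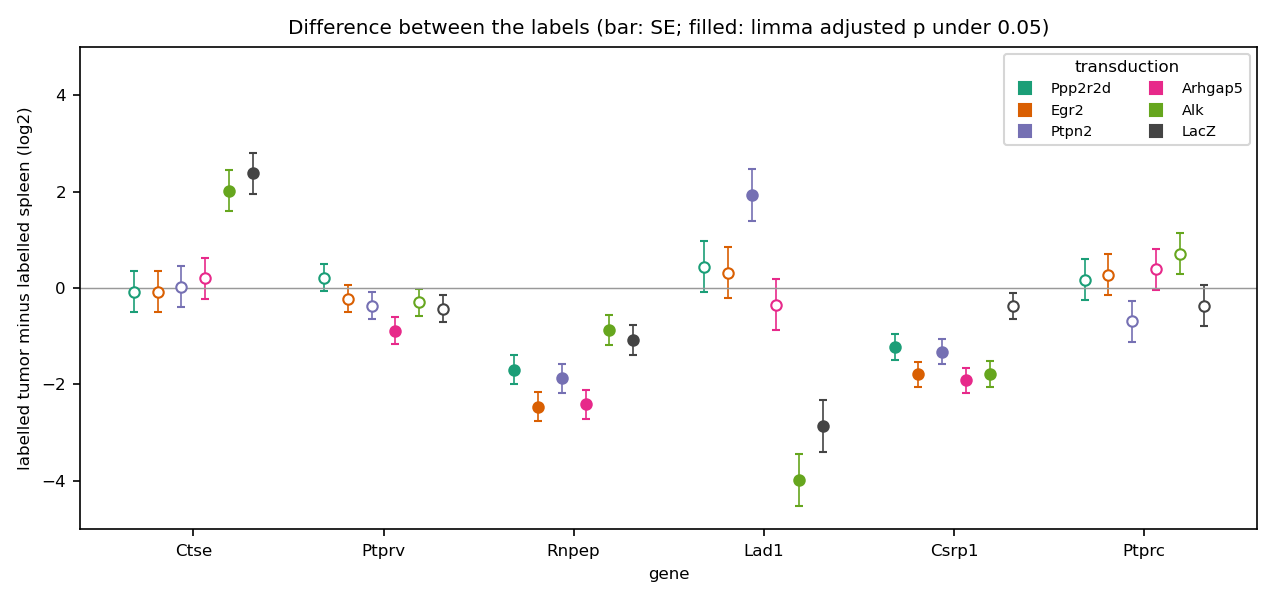
Labelled tumor minus labelled spleen (log2 difference with its standard error) for each of the 6 genes in each transduction, filled where the adjusted p is under 0.05. Rnpep is below 0 in all 6 transductions (-2.46 to -0.87), and Ctse is above 0 beyond its error with Alk (2.01) and LacZ (2.38).

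The neighbouring genes of the chromosome were read in a window set by gene order: the 81 measured genes from Ctse to Ptprc and 30 beyond each end, 141 in all, of which 135 are not among the 6. On arrays labelled tumor, 3 of their 675 pairs of a gene and a hairpin passed against LacZ (0.444%), against 0.432% of all pairs. They were Dyrk3, which encodes a protein kinase, with Ppp2r2d (1.86), and Atp2b4, a calcium pump of the cell membrane (1.66), and Kif14, a kinesin of cell division (1.56), both with Ptpn2. On arrays labelled spleen 57 of 675 passed (8.44%), 18 higher and 39 lower, against 8.39% of all pairs. These counts moved with the scaling. With cyclic loess 14 of 675 passed on arrays labelled tumor (2.07%, against 1.22% of all pairs) and with quantile normalization 13 (1.93%, against 1.29%), and leaving out 1 array gave 1 to 35. The Dyrk3 and Kif14 calls ended with quantile normalization (1.75, adjusted p = 0.107, and 0.87, adjusted p = 0.118), while that of Atp2b4 passed under both. Of the 57 calls on arrays labelled spleen, 37 passed with cyclic loess and 30 with quantile normalization, all 57 with the same sign, and the totals of 56 (8.30%) and 46 (6.81%) stood beside 8.64% and 7.25% of all pairs.

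The differences of these 135 genes from LacZ ran between -1.74 and 2.21 on arrays labelled tumor and between -3.40 and 1.62 on arrays labelled spleen. The Ctse differences of 3.89 to 4.37 and 6.06 to 6.83 with 4 hairpins lay above both ranges. The Lad1 differences of -5.17 to -4.08 lay below the spleen range. Ctse and Lad1 were chosen with these values known, so their place outside the ranges describes the choice and nothing is read from it. Il10, which encodes an anti-inflammatory cytokine, had the lowest value of these under the spleen label, at -3.40 with Ppp2r2d, -2.78 with Arhgap5, -2.56 with Alk and -1.73 with Egr2 (adjusted p = 1.42e-05, 0.000573, 0.00169 and 0.0393 by limma), and with Ptpn2 it differed by -0.90. Cfhr3, a gene of the complement factor H family, was lower with all 5 hairpins, at -1.94 to -1.38. Ddx59, an RNA helicase gene with 4 measured genes between it and Ptprc, was higher with Ppp2r2d (1.25), Arhgap5 (1.02), Egr2 (1.01) and Ptpn2 (0.99) and did not pass with Alk (0.50, adjusted p = 0.248). Some of these calls ended with other scalings: Il10 with Egr2 under cyclic loess (-1.40, adjusted p = 0.0726), Cfhr3 with Alk under both (-0.56 and -0.54), and Ddx59 with Egr2 (0.71) and Ptpn2 (0.62) under quantile normalization. In labelled tumor against labelled spleen 303 of 810 pairs of the window passed (37.4%, against 34.8% of all pairs), 153 higher and 150 lower.

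**Figure D4:**
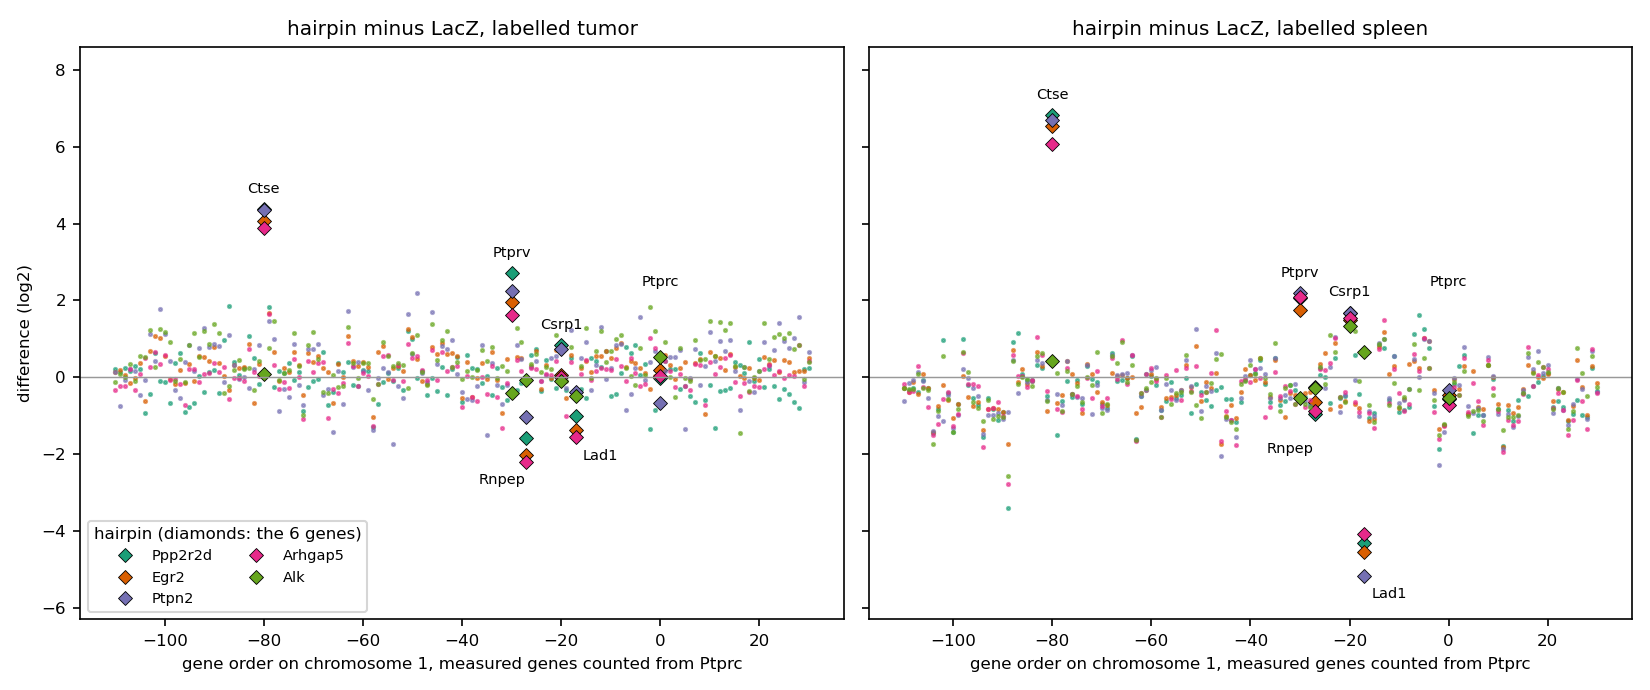
Difference from LacZ (log2) of each measured gene of the chromosome 1 window with each hairpin, by gene order counted from Ptprc, for labelled tumor and labelled spleen. Ctse, Ptprv, Rnpep, Csrp1, Lad1 and Ptprc are named; the other 135 genes lie between -1.74 and 2.21 in labelled tumor and between -3.40 and 1.62 in labelled spleen.

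Likeness of pattern was measured as Pearson r over the 36 arrays after the mean of each label was taken off each gene. All points share the 3 LacZ arrays of a label as one of 6 transductions and the scaling of each array, so r is a description. The gene most like Ctse of all 18192 others was Ptprv (r = 0.91), followed by Zbtb22, Ddx59, Smpdl3b and Dhrs13 (0.77 each). The genes most opposed to it were Lad1 (-0.80), Cylc1 (-0.69) and Cd226 (-0.68). The 6 genes were themselves chosen on values that enter r, so the place of any of them in such an order supports nothing. Among the 135 window genes outside the 6, an r beyond 0.5 in size was found for 5 (3.70%), against 791 of 18052 genes outside the window (4.38%).

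Within a label the likeness of Ptprv to Ctse was 0.89 over the 18 arrays labelled tumor and 0.95 over the 18 labelled spleen. That of Lad1 was -0.25 on arrays labelled tumor and -0.97 on arrays labelled spleen, and that of Cd226 was -0.26 and -0.83. Csrp1 had r = 0.69 to Ctse, Rnpep -0.58 and Ptprc -0.22. Ddx59 itself varied less than Ctse: it averaged 3.22 ± 0.19 with Ppp2r2d, 2.97 ± 0.08 with Egr2, 2.95 ± 0.10 with Ptpn2, 2.98 ± 0.12 with Arhgap5 and 2.46 ± 0.27 with Alk on arrays labelled spleen, against 1.96 ± 0.32 with LacZ (SD, n = 3 each). Without the 4 arrays that stood apart, r to Ctse was 0.91 for Ptprv, 0.76 for Ddx59 and -0.86 for Lad1.

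**Figure D5:**
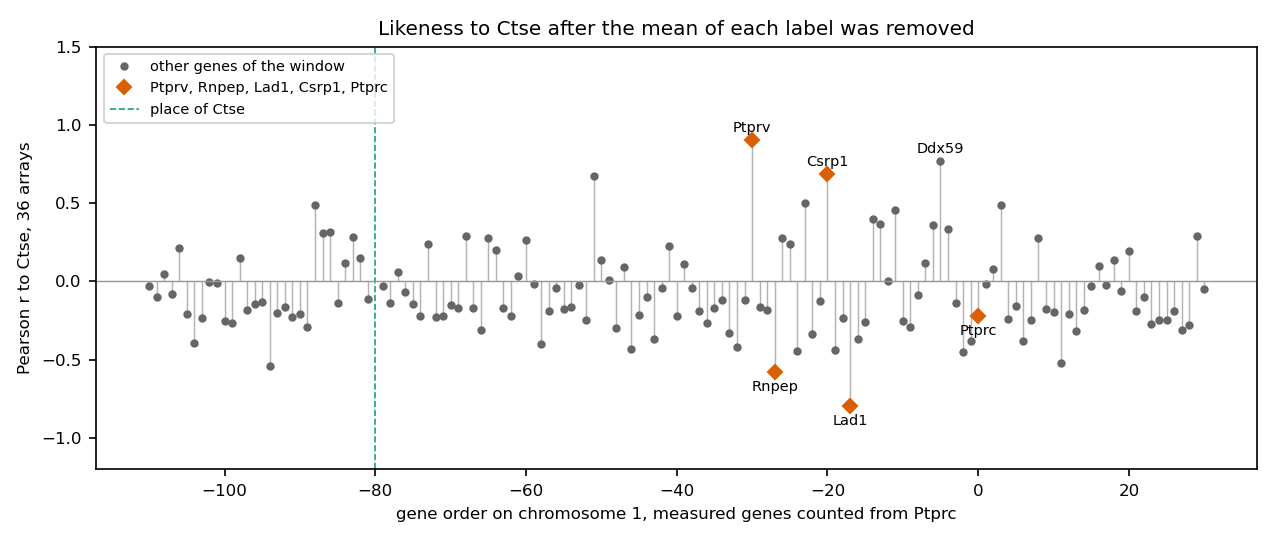
Pearson r to Ctse over 36 arrays, with the mean of each label removed, for each other gene of the chromosome 1 window by gene order from Ptprc. Ptprv (0.91) and Ddx59 (0.77) are highest and Lad1 (-0.80) lowest among the 140 genes.

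The other genes had their closest patterns elsewhere in the genome or in the window. Ptprv was most like Ctse, then Dhrs13 (0.75) and Zbtb22 (0.72). Rnpep was most like Ube2t (0.75), a ubiquitin-conjugating enzyme gene that lies in the window, Zfp994 (0.73) and Psrc1 (0.73). Their r to Rnpep was 0.82, 0.81 and 0.90 on arrays labelled tumor, but 0.45, 0.41 and 0.09 on arrays labelled spleen. Lad1 was most like Cd226 (0.76), an activating receptor of T and NK cells, Cd22 (0.73), an inhibitory receptor of B cells, and Rxra (0.72), a nuclear receptor. Their r to Lad1 was 0.87, 0.81 and 0.82 on arrays labelled spleen, but 0.17, 0.30 and 0.38 on arrays labelled tumor. Csrp1 was most like Nrbp1 (0.85), Tbcc (0.85) and Abtb1 (0.84). Ptprc was most like Ivns1abp (0.98), Srsf3 (0.98) and Btg1 (0.97), and without the 4 arrays that stood apart these r were 0.91, 0.88 and 0.87.

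Relatives of the 6 genes gave the setting of the label difference in LacZ cells, where the median of all genes was -0.48 and 25.2% passed. On the same LacZ arrays the mean of the macrophage list was -1.62 to -1.02 under the tumor label and 2.05 to 2.58 under the spleen label. That of the melanocyte list was -1.08 to -0.97 and 2.85 to 3.53. The part of these lists in the differences of the relatives was not tested. The list of aspartic proteases and cathepsins also held Lgmn (legumain), a protease of neither kind, and 19 of its genes were measured. Of these, 2 rose (Bace1, which cuts the amyloid precursor, by 1.22, and Ctsl, a lysosomal protease, by 1.04) and 5 fell. Among those that fell were Lgmn (-3.60), Ctsh (-3.58) and Napsa (-3.08), and the median of the 19 was -0.70. Ctse, at 2.38, lay above Bace1 and Ctsl in this comparison. Of 16 receptor tyrosine phosphatases, 1 rose (Ptpre) and 4 fell, among them Ptprm (-4.10), Ptprs (-2.47) and Ptprj (-2.00), with a median of -0.62. Of 9 relatives of Rnpep in the M1 aminopeptidase family, 3 fell, namely Anpep (-1.49), Aopep (-0.98) and Erap1 (-0.97), the last of which trims peptides for MHC class I, and the median was -0.51.

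Of 11 proteins made mainly of LIM domains, Tgfb1i1 (1.27) and Lmo4 (0.92) rose and Csrp2, a relative of Csrp1, fell (-2.62), with a median of 0.06. Of 12 partners and substrates of CD45, 3 rose, among them the adaptors Pag1 (1.84) and Skap1 (0.72), and Lgals1 fell (-0.78). Lgals1 was at 0.02 after cyclic loess normalization. Of 8 regulators of CD45 splicing 1 changed: Hnrnpll, whose product favours the short CD45 form in T cells, fell by 2.77 (adjusted p = 4.03e-09, limma). The other named relatives kept their sign under quantile and cyclic loess normalization, where the medians of the 6 lists lay between -0.22 and 0.32 and Aopep no longer passed with quantile normalization. The split of higher and lower calls moved with the scaling: the proteases had 3 higher and 5 lower with cyclic loess and 4 and 5 with quantile normalization, and the CD45 partners 5 and 0 with cyclic loess and 6 and 1 with quantile normalization. With cyclic loess the phosphatases had 2 higher and 4 lower and the aminopeptidases 1 and 3, and the splicing regulators had 1 and 1 under both. Against LacZ on arrays labelled tumor, 2 of 375 pairs of a list member and a hairpin passed (0.533%, against 0.432% of all pairs): Ptprj with Ptpn2 (1.33) and Hnrnpll with Ppp2r2d (1.42). On arrays labelled spleen 40 of 375 passed (10.7%, against 8.39% of all pairs), 26 higher and 14 lower. The proteases and cathepsins there had 14 of 95 pairs higher and 0 lower, with 12 and 1 under cyclic loess and 13 and 1 under quantile normalization. Ctsl was higher with all 5 hairpins, by 1.24 to 3.89, and Lgmn with Alk (2.71), where all 9 macrophage markers were higher too, and their part was not tested. The phosphatases had 6 higher and 7 lower (8 and 10 with cyclic loess, 8 and 6 with quantile normalization). The LIM proteins had 4 higher and 2 lower (7 and 0 with cyclic loess, 5 and 0 with quantile normalization), and the CD45 partners 1 and 4 (6 and 8, and 5 and 8). The aminopeptidases had 1 and 1 and the splicing regulators 0 and 0 under all of these scalings.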

How the data were processed

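RNA of mouse T cells was measured on 36 Affymetrix 3′ arrays, 3 in each of 12 groups taken from the labels. The deposited values are log2 signals, made by RMA (background correction and 1 summary value per probe set) per the submitters' processing notes. No source used here gives its settings or any centring, which would shift all levels of an array together. Of the non-control probe sets, 34945 carried 1 symbol, 932 several and 9160 none. Each gene was read from its probe set with the highest mean, which gave 18193 genes.

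The limma package (version 3.58.1, in R 4.3.3, with data.table, version 1.17.8) fitted 1 coefficient per group with lmFit and eBayes over all 36 arrays with 24 residual degrees of freedom and no filter on low values. All tests are two-sided, and p-values were adjusted by Benjamini-Hochberg over all genes in each of 21 comparisons, with a call under 0.05. A second fit took 45037 probe sets. The number of arrays limits the precision.

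The genes, lists and comparisons were chosen with earlier results of these data known. Named besides the 6 genes were up to 4 called window genes per comparison with the largest differences, the 5 genes with the highest and 3 with the lowest r to Ctse, the 3 with the highest r to each other gene, and up to 3 called members per family list. Predicted genes were skipped. Atp2b4 and Ddx59 fall under this rule, and Ptpre is named because it is the single gene of its count.

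Same-numbered arrays of the 2 labels had residual correlations of -0.24 to 0.24 over 18 pairs, 4 of them over 0.1. Same-numbered hairpin and LacZ arrays of a label had -0.59 to 0.52 over 30 pairs, 9 of them over 0.1. The labels do not say whether the numbers pair the arrays, and the main fit used no pairing. No 2 arrays were identical. In data simulated for the Ppp2r2d comparison in labelled tumor (18193 genes), 12 of 50 genes changed by 1, 39 of 50 changed by 2 and 50 of 50 changed by 4 were recovered, with 8 false calls. Promoter sequences are from RefSeq (GRCm38.p6). Alternatives tried were averaging a gene's probe sets, a filter on low values, cyclic loess, quantile normalization, array weights, a replicate block, a minimum difference of 1, a fit of the compared arrays alone and leaving out each array.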

Additional observations from a re-analysis of the deposited data

Results flagged for a closer look

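The difference between a hairpin and LacZ was compared between the tissue labels by the interaction term of the fit, and the 7 pairs of a gene and a hairpin past its threshold are given here. These terms are built from the contrasts that entered the choice of the genes, so they are given as values. A negative value means that hairpin minus LacZ was smaller in labelled tumor than in labelled spleen. For Ctse the term was -2.46 with Ppp2r2d, -2.35 with Ptpn2 and -2.17 with Arhgap5. With Egr2 it was also -2.46 but did not pass (adjusted p = 0.116, limma). Of 12 fits without 1 array of the groups compared, the Ctse term passed in 1 with Ppp2r2d, 10 with Ptpn2 and 2 with Arhgap5. LacZ itself lay 2.38 higher in labelled tumor than in labelled spleen. For Lad1 the term was 3.30 with Ppp2r2d and 4.79 with Ptpn2, which passed in 5 and 12 of 12 such fits. With Egr2 it was 3.18 and did not pass (adjusted p = 0.112, limma). For Csrp1 the term was -1.54 with Arhgap5 and -1.41 with Alk, which passed in 6 and 12 of 12 such fits. With Egr2 it was -1.42 and did not pass (adjusted p = 0.132, limma). Of the 7 terms, 2 ended with the replicate block and 2 with quantile normalization. In the quantile-normalized fit of all probe sets the main Csrp1 set passed neither with Arhgap5 (-1.15, adjusted p = 0.0786, limma) nor with Alk (-1.15, adjusted p = 0.0548). The second Csrp1 set passed there with both (-1.50, adjusted p = 0.0103, and -2.16, adjusted p = 0.000293). No cause was tested.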

How the results depend on the processing

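The count of gene and transduction pairs called between the labels (17) was 16 to 18 when 1 array was left out and 16 with the replicate block. It became 22 with the mean of all probe sets, 19 with array weights, and 15 with quantile normalization and with a minimum difference of 1. Against LacZ, the 11 calls of the 6 genes in labelled tumor became 19 with array weights, whose fit stopped before its tolerance was reached, and 5 with the compared arrays alone (11 to 13 without 1 array). The 18 calls in labelled spleen ranged from 17 to 19 without 1 array. They became 20 with cyclic loess, with quantile normalization and with array weights. The 7 calls of the tissue difference became 11 with the mean of all probe sets, 19 with array weights and 11 without the 4 arrays that stood apart. Without 1 array they ranged from 3 to 12: 3 without LacZ array 1 or 3 labelled tumor, 12 without LacZ array 2, 11 without Ptpn2 array 1 labelled tumor, and 4 without LacZ array 2, Ppp2r2d array 3 or Arhgap5 array 2 or 3 labelled spleen or Ppp2r2d array 2 or 3 labelled tumor. The window count in labelled tumor (3) became 7 with the mean of all probe sets, 14 with cyclic loess, 13 with quantile normalization, 182 with array weights, 28 with the compared arrays alone and 58 without the 4 arrays. Without 1 array it ranged from 1 to 35: 9 without the second LacZ array labelled spleen, and, among arrays labelled tumor, 5, 14 and 1 without LacZ array 1, 2 and 3, 7 without Egr2 array 2 and 1, 35 and 8 without Ptpn2 array 1, 2 and 3. The window count in labelled spleen (57) became 116 with array weights and 23 with the compared arrays alone, and ranged from 21 (without the second LacZ array labelled spleen) to 90 (without the second Egr2 array labelled tumor). With the replicate block the other counts were 11, 18, 5, 3 and 46, in the order used here. The labels do not say whether the replicate numbers pair the arrays, and the cause of these moves was not tested. Shares of all pairs against LacZ are given above only for the deposited values, cyclic loess and quantile normalization. For the other settings no share of all genes stands beside these counts. A move of the window or of the 6 genes therefore cannot be told from a move of all genes, and nothing is read from it.

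Ctse changed sign with its second probe set in labelled tumor minus labelled spleen with Alk (-2.57; mean of both sets -0.28) and LacZ (-0.88; mean 0.75, adjusted p = 0.0523 by limma), and against LacZ in labelled tumor with Ppp2r2d (-0.44), Egr2 (-0.45) and Arhgap5 (-0.74). The uncalled label differences of Ptprc changed sign with the replicate block for Ppp2r2d (-0.25), Egr2 (-0.14) and Arhgap5 (-0.033), and for Egr2 with array weights (-0.13), without Egr2 array 2 labelled tumor (-0.033 to 0.50 over fits without 1 array) and without the 4 arrays (-0.033). For Ptpn2 they were 0.13 with the mean of both sets, 0.24 without array 1 labelled tumor (-1.33 to 0.24 over fits without 1 array) and 0.95 with the second set, and for LacZ 0.43, 0.24 with cyclic loess, 0.18 with quantile normalization and 1.22 with the second set. The filter on low values kept 13561 genes, all 6 here among them. Low signals limit the sizes for Lad1 and, against LacZ labelled spleen, for Ctse, and changes under 1 were seldom recovered in simulated data.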
